A study of Gossypium hirsutum with 6 samples.

Results

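Among the gene models of allotetraploid cotton, 200 stood out as abundant in young leaves and near the bottom of the scale in ovules and fibers. They were chosen from 77357 models by their own values. A model had to reach 20 FPKM in each leaf library, with the leaf libraries within 1.5-fold of each other, and 5751 models passed both filters. FPKM counts fragments over the length of a gene model and the size of the library, so it is a level per length. The models that passed were ranked by (L + 1)/(M + 1), where L is the mean FPKM in leaf and M is the higher of the mean FPKM in fiber and the mean FPKM in ovule. The 200 highest were kept and are called the leaf-restricted models here. Because the levels in leaf, fiber and ovule chose them, their leaf values and their distance from the other tissues are a description, with no test.

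Polyadenylated RNA of *Gossypium hirsutum* acc. TM-1, grown in a greenhouse, was sequenced from 1 end with the strand kept. Young leaves, fibers at 14 days post anthesis (DPA) and ovules at 0 DPA, the day of flowering, each gave 2 biological replicates, which makes 6 libraries. All plants were of the same accession, and no treatment or mutant was part of the design. The labels do not say how many plants, leaves or bolls were pooled in a library, or how far fibers were freed of other seed tissue.

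A young leaf builds its photosynthetic machinery. In land plants generally, nuclear genes for the small subunit of Rubisco, for the chlorophyll a/b-binding proteins of the light-harvesting antennae and for subunits of the photosystems give some of the most abundant transcripts of green tissue. Cotton fibers, by contrast, are single cells of the ovule epidermis that elongate and then lay down cellulose, and the ovule at flowering holds the embryo sac and its surrounding tissues. This is background. The gene table that RefSeq gives for upland cotton held 0 of the 77357 identifiers, so no member could be given a gene name, a position, a protein or a function, and the tissue labels could not be checked against defining markers. Identifiers with the prefix Cotton_A are read here as A-genome models and those with the prefix Gorai as D-genome models, from the prefix alone.

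Summed FPKM lay between 927473 and 1014584 in the 6 libraries. The table holds no read totals, but values of a model in different libraries often stood in whole-number ratios, from which whole reads behind each value were recovered for 36797 of 51808 models. These reads are lower bounds. With fiber replicate 1 set to 1, the leaf libraries had relative depths of 0.704 and 0.728, fiber replicate 2 had 0.964, and the ovule libraries had 0.867 and 0.740. Over the 42214 models with a mean of at least 0.5 FPKM, the leaf replicates correlated at 0.978 on the scale of log2(FPKM + 1), the fiber replicates at 0.986 and the ovule replicates at 0.982, across models that are not independent. The fiber libraries nevertheless differed from each other in the leaf-restricted models. Fiber replicate 1 held 554 FPKM in their sum and fiber replicate 2 held 319 FPKM. The median change of fiber over ovule in these models is also given without each fiber library. Most other results that rest on fiber use both libraries.

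The leaf-restricted models spanned a wide range of leaf levels. Their median was 501 FPKM in leaf replicate 1 and 547 FPKM in leaf replicate 2, with the middle portion of the list between 209 and 1310 FPKM in leaf replicate 1 (quartiles). The lowest leaf value of any member was 51.4 FPKM and the highest was 48155 FPKM. The low end is set by the rule, since a ratio of 51.7, that of place 200, needs a mean leaf level of about that size. By mean leaf level, 13 members lay under 100 FPKM, 122 lay between 100 and 1000 FPKM and 65 reached 1000 FPKM. The members made up much of the top of the leaf transcriptome, with 9 of its 10 most abundant models, 61 of its 100 and 175 of its 1000. The 1 added to both means in the ratio favors models of high leaf level. Outside leaf the same models sat low. Fiber medians were 0.993 and 0.582 FPKM, and ovule medians were 5.93 and 6.65 FPKM.

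**Figure D1:**
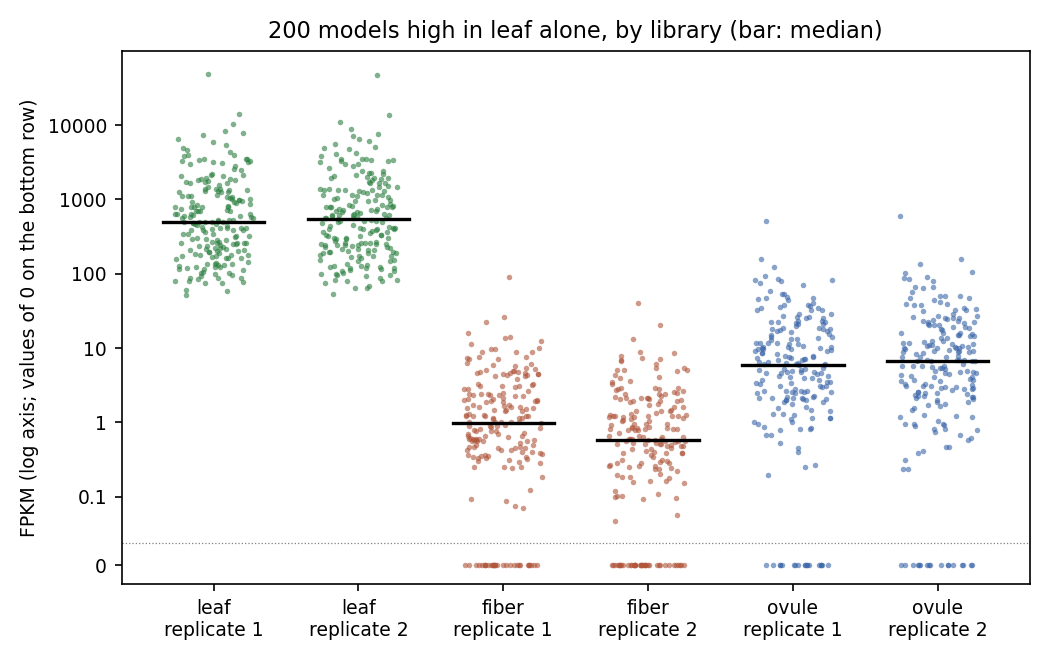
FPKM of the 200 leaf-restricted models in each of the 6 libraries (log axis, values of 0 on the bottom row; points are models and bars are medians over the 200). The medians are 501 and 547 FPKM in leaf, 0.993 and 0.582 FPKM in fiber, and 5.93 and 6.65 FPKM in ovule, and the fiber libraries have the most models at 0, with 30 and 39.

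As a share of all expression, the 200 models held 29.2% and 28.5% of the summed FPKM in the leaf libraries (28.9% ± 0.475, SD, n = 2). Without the 100 highest models of each library they held 8.07% of leaf FPKM. The same models held 0.0566% and 0.0342% in the fiber libraries (0.0454% ± 0.0159, SD, n = 2). In the ovule libraries they held 0.344% and 0.387% (0.366% ± 0.0302, SD, n = 2). The fiber and ovule shares did not overlap. Nothing is read from a test of these shares, because the rule had used them and 2 libraries against 2 cannot give an exact permutation p under 0.333. The leaf share rested on few models, since the highest member alone made up 16.6% of the members' mean leaf FPKM and the 10 highest made up 41.5%. The next 200 models of the ranking held 6.58% ± 0.10 of leaf FPKM (SD, n = 2). In bulk tissue, a lower level from fewer cells of a type and one from less RNA per cell cannot be told apart, which holds for every comparison between tissues here.

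The ranking ratio fell slowly along the list. It was 298 at place 1, 117 at place 10, 84.9 at place 50, 73.1 at place 100 and 51.7 at place 200. At the edge there was no gap. Just inside, Cotton_A_30445 had 178 and 188 FPKM in leaf, 0.455 and 0.315 FPKM in fiber, and 2.62 and 2.46 FPKM in ovule. Gorai.010G200600 had 1078 and 1143 FPKM in leaf, 3.07 and 2.13 FPKM in fiber, and 19.9 and 20.8 FPKM in ovule. Cotton_A_13025, in the last place, had 226 and 213 FPKM in leaf, 0.585 and 0.260 FPKM in fiber, and 2.79 and 3.73 FPKM in ovule. Just outside, the ratios were 51.67 for Gorai.008G004100, 51.66 for Gorai.001G055700 and 51.61 for Cotton_A_30250, against 51.74 for the last member. Cotton_A_30250 was far more abundant than its neighbours in the ranking, with 3335 and 4167 FPKM in leaf, 3.19 and 1.10 FPKM in fiber, and 72.9 and 70.5 FPKM in ovule. Gorai.008G004100 had 625 and 668 FPKM in leaf, 1.35 and 0.700 FPKM in fiber, and 10.8 and 12.3 FPKM in ovule, while Gorai.001G055700 had 145 and 149 FPKM in leaf, 0.303 and 0.105 FPKM in fiber, and 2.10 and 1.64 FPKM in ovule.

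The leaf filters mattered little for who was in. Without them, 210 models lay at or above the ratio of place 200, of which 2 were kept out by the leaf minimum and 8 by the limit on the difference between the leaf libraries. The members' own leaf libraries differed by at most 1.45-fold, and 14 members differed by over 1.2-fold.

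When the same rule was run for the other tissues, the order of the lists changed along the ranking. At place 10 the leaf ratio was the lowest, at 117 for leaf, 134 for fiber and 132 for ovule. At place 200 it was the highest, at 51.7 for leaf, 24.2 for fiber and 24.9 for ovule. Ratios of at least 10 were reached by 1001 of 5751 models for leaf (17.4%), 503 of 6144 for fiber (8.19%) and 557 of 7299 for ovule (7.63%). At place 1 the ratio was 298 for leaf, 2471 for fiber and 247 for ovule. The median level in the tissue of choice was 530 FPKM for the leaf list, 154 FPKM for the fiber list and 125 FPKM for the ovule list. Those lists also held less of their own tissue, with 15.4% of fiber FPKM in the 200 fiber models and 5.91% of ovule FPKM in the 200 ovule models.

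**Figure D2:**
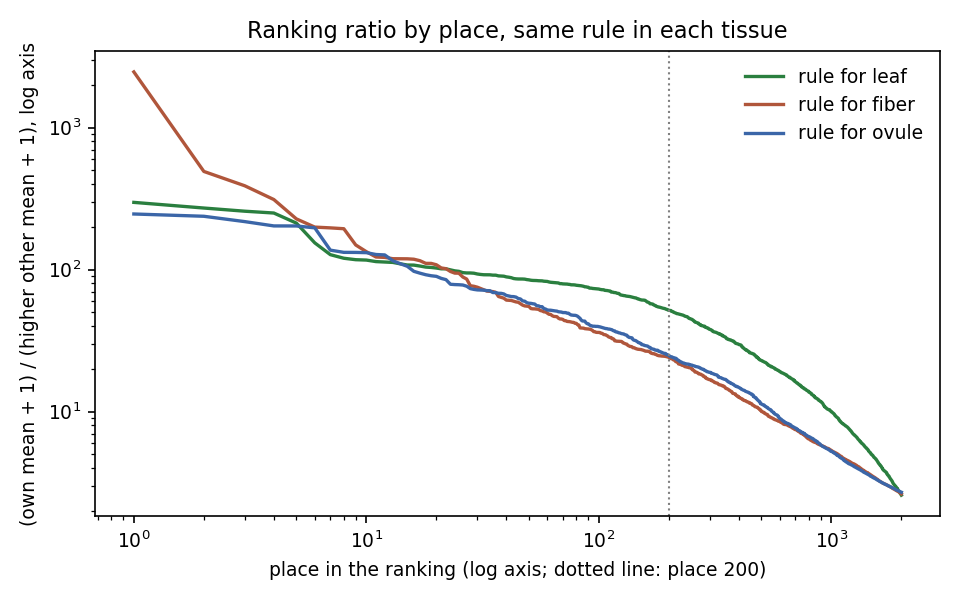
Ranking ratio, the mean in the tissue of choice plus 1 over the higher mean of the other tissues plus 1, by place in the ranking (both axes log; green, rule for leaf; brown, for fiber; blue, for ovule; dotted line, place 200). At place 200 the leaf curve is at 51.7, the fiber curve at 24.2 and the ovule curve at 24.9, while at place 1 the fiber curve is highest at 2471.

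To see whether the choice carried over between replicates, the rule was run on the replicate 1 libraries alone and its models were read in the replicate 2 libraries, and the reverse. The list from replicate 1 shared 180 models with the full list. Read in replicate 2, its median ratio was 71.8, with 196 of 200 models at 10 or more, 180 at 50 or more and the lowest at 1. The list from replicate 2 shared 173 models with the full list. Read in replicate 1, its median ratio was 73.0, with 197 of 200 models at 10 or more, 172 at 50 or more and the lowest at 0.00834. Each list thus held at least 1 model that was not higher in leaf in the other replicate.

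The most abundant member was Cotton_A_22555. It had 48155 and 47148 FPKM in leaf, 91.3 and 40.1 FPKM in fiber, and 512 and 593 FPKM in ovule. At 4.95% and 4.65% of all FPKM in the leaf libraries, it was also the member of highest level in fiber and ovule, so it was low there but not absent. Recovered reads numbered 133382 and 134972 in leaf, 359 and 152 in fiber, and 1748 and 1724 in ovule.

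Next came Cotton_A_12540, with 14235 and 13847 FPKM in leaf, 26.2 and 13.3 FPKM in fiber, and 157 and 159 FPKM in ovule. Its neighbour by identifier number, Cotton_A_12541, had 7720 and 7196 FPKM in leaf, 11.5 and 7.88 FPKM in fiber, and 75.1 and 101 FPKM in ovule. Whether the pair are paralogs is not known here, and reads of near-identical copies could be split between them or lost, because only uniquely mapped reads were kept. The D-genome model of highest leaf level was Gorai.001G201800, at 10339 and 10928 FPKM in leaf, 15.9 and 6.78 FPKM in fiber, and 123 and 136 FPKM in ovule. Cotton_A_29706 had 8416 and 8958 FPKM in leaf, 14.2 and 7.39 FPKM in fiber, and 80.7 and 83.8 FPKM in ovule. In all these models the tissues ran in the same order, leaf over ovule over fiber, with no overlap between the libraries of different tissues.

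The remaining 5 of the 10 most abundant members repeated this order. Cotton_A_12362 had 7365 and 7522 FPKM in leaf, 13.7 and 7.23 FPKM in fiber, and 94.4 and 104 FPKM in ovule. Cotton_A_17558 had 6529 and 6539 FPKM in leaf, 12.3 and 8.45 FPKM in fiber, and 81.9 and 89.7 FPKM in ovule. Cotton_A_34230 was at 5983 and 6086 FPKM in leaf, 8.84 and 5.08 FPKM in fiber, and 82.7 and 80.4 FPKM in ovule. In each of them fiber replicate 1 lay above fiber replicate 2. Cotton_A_30884 was at 5435 and 5553 FPKM in leaf, 9.78 and 4.97 FPKM in fiber, and 58.2 and 64.8 FPKM in ovule. Cotton_A_09440, which is also the member of place 10 by ratio, had 4952 and 5077 FPKM in leaf, 9.58 and 6.91 FPKM in fiber, and 39.9 and 43.9 FPKM in ovule. Of the 10, 9 have A-genome prefixes.

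Several of the highest ratios belonged to models of lower leaf level that were not detected outside leaf. Cotton_A_35641, at place 1, had 259 and 335 FPKM in leaf and was listed at 0 in every fiber and ovule library. The smallest whole reads that fit its values were 3 and 4 in the leaf libraries, at 86.5 FPKM per read. Cotton_A_27714, at place 3, had 261 and 253 FPKM in leaf, which 1 read in each library fits. Cotton_A_26732, at place 5, had 173 and 251 FPKM in leaf, which 2 and 3 reads fit. Both were listed at 0 in every fiber and ovule library. These 3 are the members with under 10 recovered reads over both leaf libraries. Recovered reads are lower bounds, and with all other libraries at 0 any common multiple fits as well, so the depth behind these 3 members is not known.

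Other top places had more recovered reads or none. Cotton_A_23735, at place 2, had 489 and 578 FPKM in leaf with 185 and 226 recovered reads, 0 and 1.93 FPKM in fiber and 0 in both ovule libraries. The fiber value came out as 1 read. Cotton_A_13861, at place 6, had 1788 and 1732 FPKM in leaf with 3212 and 3216 recovered reads, 0 and 1.22 FPKM in fiber, and 8.59 and 12.2 FPKM in ovule. Gorai.013G164200, at place 7, had 267 and 263 FPKM in leaf, 0.814 and 0.552 FPKM in fiber, and 0.938 and 1.23 FPKM in ovule. For it, as for Cotton_A_09786 (243 and 256 FPKM in leaf), Cotton_A_33175 (119 and 120 FPKM) and Cotton_A_03992 (96.0 and 137 FPKM), whole reads were not recovered. The last 3 of these were listed at 0 in both fiber and both ovule libraries.

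In most members the leaf level rested on many reads. Whole reads were recovered for 150 of the 200, which were 99 of the 110 A-genome members and 51 of the 90 D-genome members. Over both leaf libraries those 150 had between 2 and 268354 reads with a median of 5930, and 134 of them had at least 1000. Summed over the 150, reads numbered 1124491 and 1176964 in leaf, 3170 and 1705 in fiber, and 16593 and 15285 in ovule. The median member had 7.5 and 4 reads in the fiber libraries, so single fiber values of most members are imprecise.

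Complete absence outside leaf was rare. Only 14 members were listed at 0 in both fiber and both ovule libraries, all 14 with A-genome prefixes, at mean leaf levels between 55.5 and 297 FPKM. Whole reads were recovered for only 3 of them, the models of places 1, 3 and 5 above. Of the 200 members, 154 were above 0 in each of the fiber and ovule libraries, 23 were at 0 in both fiber libraries and 15 were at 0 in both ovule libraries. Among all 5751 models that passed the leaf filters, 31 were listed at 0 in the fiber and ovule libraries, and 26 of those had A-genome prefixes.

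Where members were detected outside leaf, the ratios of their leaf level to the other tissues mostly lay in a band. Mean leaf over mean ovule had a median of 86.7 with quartiles of 74.9 and 106 in the 185 members above 0 in ovule, and 168 of the 185 lay between 50 and 150. Mean leaf over mean fiber had a median of 705 with quartiles of 476 and 887 in the 177 members above 0 in fiber, and 142 of the 177 lay between 300 and 1200. The rule keeps the ratio to ovule above about 50 in most members and so trims that distribution from below. It set no upper limit, but the members are the top of a falling ranking, so ratios gather above the cut. The ratio to fiber was mostly far above the limit of choice. How far the band goes beyond the choice was not tested. Across the 200 members, the Pearson correlation of log2(FPKM + 0.1) between leaf replicate 1 and the other libraries was 0.87 and 0.79 with the fiber replicates and 0.91 with each ovule replicate. Across the 5751 models that passed the leaf filters, the same correlations were 0.037 and 0.0074 with fiber and 0.19 and 0.20 with ovule. These are descriptions across models of shared libraries, and choosing models within a band of ratios itself raises such a correlation.

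**Figure D3:**
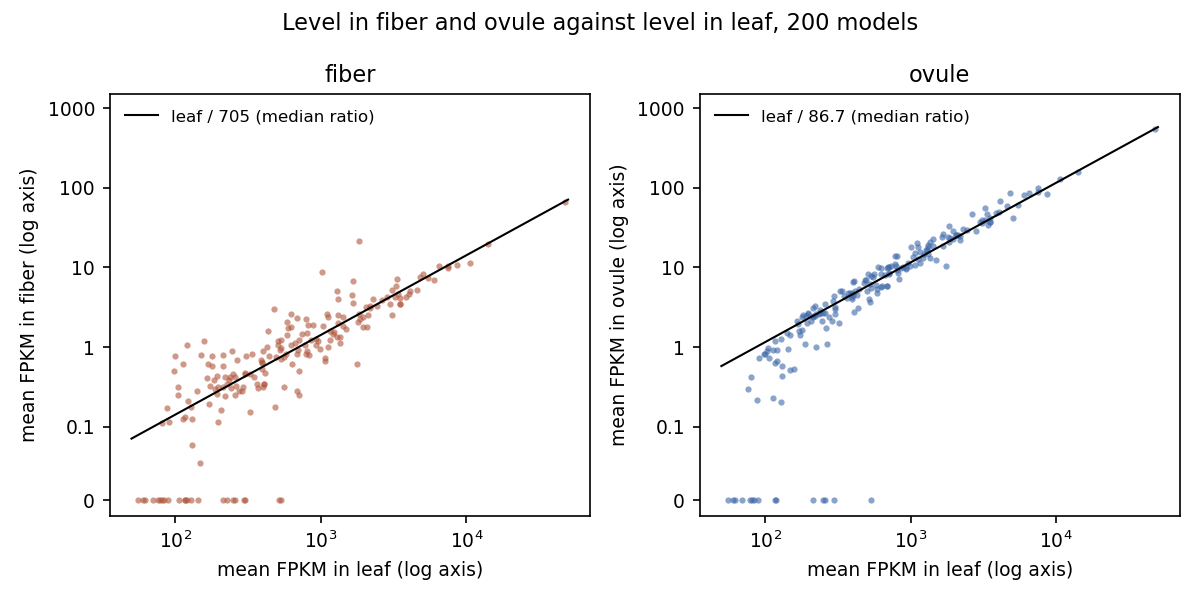
Mean FPKM of the 200 leaf-restricted models in fiber (left) and in ovule (right) against their mean FPKM in leaf (log axes, values of 0 on the bottom row; points are models, the line is the leaf level divided by the median ratio). Points lie along the line of leaf over 705 in fiber and of leaf over 86.7 in ovule, with more scatter in fiber below about 1 FPKM.

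The band widened further down the ranking. Leaf over fiber spread over 0.90 log2 units between its quartiles in the members, 1.89 in the next 200 models of the ranking and 2.80 in the 400 after those. The next 200 models also lay nearer 0 in fiber, with medians of 0.349 and 0.240 FPKM against 0.993 and 0.582 FPKM in the members. Counting error weighs more at such levels, and its part in the wider spread was not tested. Its median was 705 in the members, 442 in the next 200, 143 in the 400 after those and 33.7 in the 700 that followed. Leaf over ovule, on which the rule mostly ranked, had medians of 86.7, 58.3, 30.3 and 9.96 in the same order.

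Not all members kept to the band in fiber, where 142 of the 177 lay between 300 and 1200. Those outside it lay on both sides, and the 2 described here lay below it. Cotton_A_08320, named after its values were seen, had 1814 and 1829 FPKM in leaf, 22.6 and 20.4 FPKM in fiber, and 32.6 and 33.5 FPKM in ovule, a leaf level only 84.6 times that in fiber. Its fiber values came from 116 and 101 reads. Cotton_A_36818, chosen the same way, had 1022 and 1002 FPKM in leaf, 8.91 and 8.76 FPKM in fiber, and 18.0 and 17.5 FPKM in ovule, from 57 and 54 reads in fiber. In both models the fiber replicates were close to each other, unlike in most members.

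Fiber over ovule was the comparison on which the rule did not rank, but fiber and ovule levels entered the rule through the higher of their means. The counts are therefore a description, and no p-value is given for a single member. The comparison asks whether transcripts that are low in both tissues changed in the fiber relative to the ovule it grows from. Of the 200 members, 146 were lower in fiber and 0 were higher (limma, Benjamini-Hochberg adjusted p under 0.01 and over 2-fold). Over all 42214 models tested, 33.5% were lower in fiber and 16.8% were higher. All 200 members passed the filter on low values through their leaf levels. At an unadjusted limma p under 0.05, 174 members were lower in fiber and 1 was higher. The share of all tested models at that limit was not computed, so nothing is read from this count. The study's rule of over 2-fold with an analysis of variance P under 0.01 was run on the fiber and ovule libraries alone. By it, 46 members were lower in fiber (23.0%) and 0 were higher, beside 24.3% of all tested models lower and 12.7% higher. The share of members lower in fiber was thus no larger by that rule than that of all models. Members had a median log2 change of -1.92 (range -3.67 to 0.78), against -0.42 in all tested models. The scaling between libraries moved the split of all models, and with quantile normalization 109 members were lower in fiber and 1 was higher, where 9764 of all tested models were lower and 9994 were higher. Both fiber libraries lay below both ovule libraries in 176 of the 200 members, as they did in 56.3% of all tested models, and the opposite held in 1 member. Without fiber replicate 1, the members' median log2 change was -1.97, against -0.44 in all tested models. Without fiber replicate 2, it was -1.76, against -0.44.

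**Figure D4:**
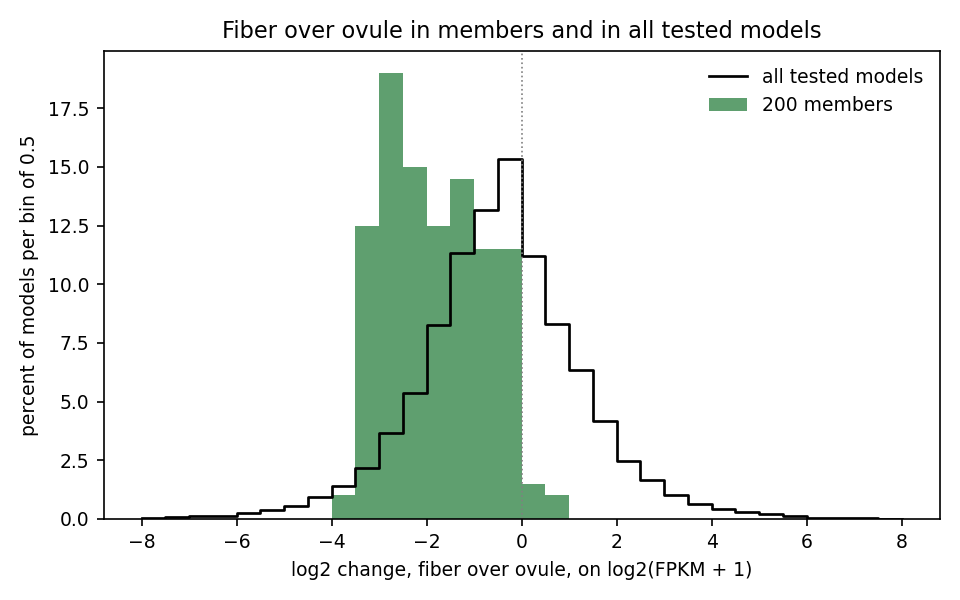
Distribution of the log2 change of fiber over ovule on the scale of log2(FPKM + 1), as the percent of models in bins of 0.5 (filled, the 200 leaf-restricted models; line, all 42214 tested models; a change of exactly 0 falls in the bin below 0). The members' median is -1.92 and that of all tested models is -0.42, and no member passes a log2 change of 0.78.

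Of the called members, Cotton_A_05377 had the most negative change. It had 7.56 and 2.48 FPKM in fiber, against 71.1 and 66.2 FPKM in ovule, with 3923 and 4255 FPKM in leaf, and its log2 change was -3.67 (SE 0.416). Gorai.001G201800, one of the abundant members above, had a log2 change of -3.51 (SE 0.358). Cotton_A_20685 had 2.50 and 2.60 FPKM in fiber, against 46.1 and 32.1 FPKM in ovule, and a log2 change of -3.48 (SE 0.158). Its fiber values came out as 2 reads in each library. The SE pools the spread within all 3 tissues, leaf included, so it does not measure the counting error of so few reads. Gorai.011G041600 had 9.88 and 5.13 FPKM in fiber, against 85.9 and 88.2 FPKM in ovule, and a log2 change of -3.43 (SE 0.268). In all 4, every fiber value was below every ovule value. The most abundant member, Cotton_A_22555, had a log2 change of -3.16 (SE 0.376).

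The 54 members that were not called were mostly low in ovule. Their median ovule level was 0.733 FPKM and 44 of them lay under 2 FPKM in ovule, against a median of 10.1 FPKM in the 146 called members. On the scale of log2(FPKM + 1) the change of such low values is understated. A member with a mean under 1 FPKM in ovule cannot be called lower on that scale, even at 0 in fiber. The lowest mean ovule level of a called member was 1.43 FPKM. Cotton_A_08320 and Cotton_A_36818 were not among the low ones, with log2 changes of -0.60 ± 0.0653 and -0.93 ± 0.0600 (SE), both under 2-fold.

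The mean was higher in fiber than in ovule in 5 members, all low in both tissues. Gorai.008G142500 had 1.16 and 1.20 FPKM in fiber, against 0.669 and 0.392 FPKM in ovule, without overlap, and a log2 change of 0.52 (SE 0.119) that is under 2-fold on that scale. With a pseudocount of 0.1 it was the only member called higher in fiber, at a log2 change of 1.06. The largest member change at that setting was 2.17, in a member that was not called. In the other 4, Cotton_A_23735, Gorai.001G090600, Cotton_A_19400 and Cotton_A_21735, the fiber libraries disagreed. Cotton_A_19400 had 0 and 1.22 FPKM in fiber, against 0.452 and 0 FPKM in ovule, Gorai.001G090600 had 0 and 1.59 FPKM in fiber, against 0 and 1.04 FPKM in ovule, and Cotton_A_21735 had 0.693 and 1.44 FPKM in fiber, against 1.10 and 0.234 FPKM in ovule.

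For completeness, all 200 members were called higher in leaf in both comparisons the rule drew on. Over all tested models 25.3% were higher in leaf than in fiber and 15.7% were higher in leaf than in ovule. Members had a median log2 change of 8.12 over fiber (range 5.82 to 10.21) and 6.20 over ovule (range 5.70 to 9.06), and nothing is read from these counts.

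The fiber replicates, which the rule averaged, differed in level across the members. Among the 154 members above 0 in both fiber libraries, 126 were higher in replicate 1, with a median ratio of replicate 1 to replicate 2 of 1.75. Replicate 1 was over 1.5 times replicate 2 in 90 of the 154 members (58.4%), as it was in 8.66% of all tested models above 0 in both. The reverse held in 10 members. Models of like fiber level (0.573 to 2.92 FPKM) that did not pass the leaf filters had a median ratio of 0.991, and replicate 1 was over 1.5 times replicate 2 in 1177 of 10652 of them (11.0%). In the ovule libraries replicate 1 was over 1.5 times replicate 2 in 12 of 180 members (6.67%), beside 7.43% of all tested models. The members leaned there slightly the other way, with 58 of 180 higher in replicate 1 and a median ratio of 0.927, where 20715 of 39706 tested models were higher in replicate 1. The leaf replicates had a median ratio of 0.982.

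The difference between the fiber libraries was clearest where reads were most. In the 85 members with at least 10 recovered fiber reads, 76 were higher in fiber replicate 1. In the 27 members with at least 50, all 27 were higher in fiber replicate 1, with ratios between 1.02 and 3.28 and a median of 1.93. Summed over the 150 members with recovered reads, fiber replicate 1 had 3170 reads and fiber replicate 2 had 1705. At equal depth this is a ratio of 1.79 (95% exact interval 1.69 to 1.90, which covers counting error only and not the spread between libraries). The abundant members differed likewise, with 359 against 152 reads for Cotton_A_22555 and 100 against 49 reads for Cotton_A_12540.

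**Figure D5:**
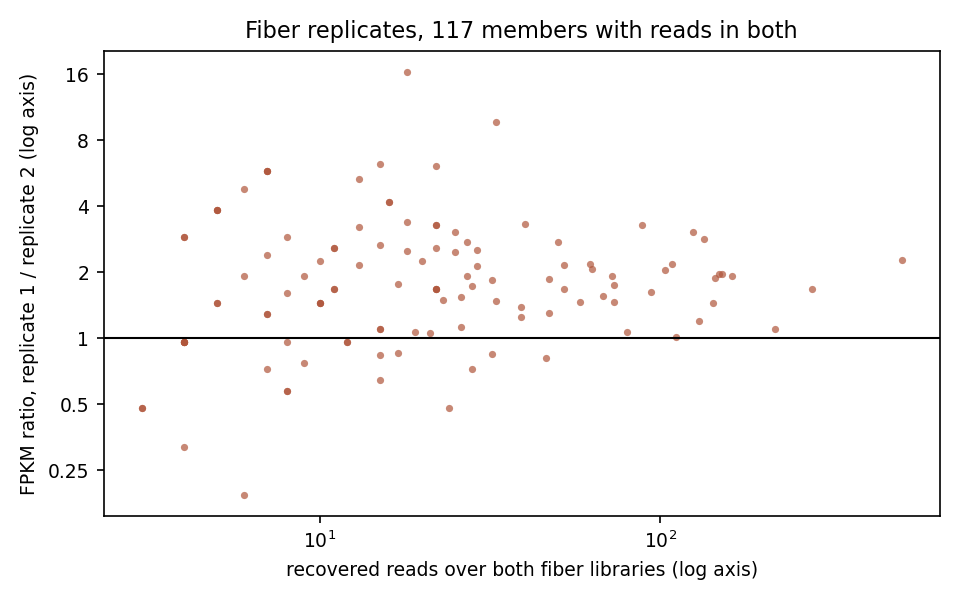
Ratio of FPKM in fiber replicate 1 to that in fiber replicate 2 against the recovered reads over both fiber libraries (log axes; 117 leaf-restricted models with reads in both; points are models, the line marks a ratio of 1). All 27 models with at least 50 reads lie above 1, with a median ratio of 1.93.

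A shift between the fiber libraries was also seen in the ovule list, but it was weaker there and slight in the next 200 models. Among models chosen by the same rule for ovule, which are also low in fiber, 108 of 158 were higher in replicate 1, with a median ratio of 1.29. Replicate 1 was over 1.5 times replicate 2 in 58 of the 158 (36.7%) and the reverse held in 16. In the next 200 models of the leaf ranking, 72 of 133 were higher in replicate 1, with a median ratio of 1.08. There replicate 1 was over 1.5 times replicate 2 in 44 of the 133 (33.1%), with 29 the other way. What moved these low values between the fiber libraries was not tested. The difference is small beside the distance to leaf, since 554 and 319 FPKM in the fiber libraries stand against 284190 and 289374 FPKM in the leaf libraries.

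By prefix, 110 members were A-genome models and 90 were D-genome models. The A-genome share of 55.0% lay beside 53.2% of the 5751 models that passed the leaf filters, 48.8% of the tested models and 51.9% of the table, and the lists chosen for fiber and for ovule each held 113 A-genome models of 200. In expression the A-genome members weighed more, with 69.2% and 68.8% of the members' FPKM in the leaf libraries, or 62.9% and 62.7% without Cotton_A_22555. Their median mean leaf level was 581 FPKM, against 497 FPKM in D-genome members. Because reads of a homoeolog pair that map equally well to both copies were not kept, levels of single copies are uncertain.

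Members were spread over the numbering of the D-genome models. Gorai identifiers carry a number block before the letter G, and the 90 D-genome members fell in all 13 blocks, with 2 to 13 in each. Adjacent identifier numbers occurred in 5 pairs of members, beside 4 pairs in the fiber list and 9 in the ovule list. The D-genome pair was unequal, with Gorai.005G241800 at 2048 and 2045 FPKM in leaf and Gorai.005G241900 at 86.8 and 93.8 FPKM. Cotton_A_00760 and Cotton_A_00761 were nearly level in leaf, the one at 1896 and 1992 FPKM and the other at 1707 and 1964 FPKM. Their fiber libraries ran in opposite orders, at 1.16 and 3.61 FPKM in Cotton_A_00760 and 4.31 and 0.814 FPKM in Cotton_A_00761. These pairs were named after their values were seen, and whether the members of a pair share sequence is not known here.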

How the data were processed

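The 6 libraries were grouped by tissue from the sample titles, and the members and lists were chosen with earlier results of these data known. The authors deposited FPKM values per gene model and library. The study's methods give TopHat mapping to the TM-1 genome, uniquely mapped reads and Cufflinks. The submitters' processing notes also name CASAVA 1.8, and for the other tools a version is not given in the sources used here. The identifiers are not TM-1 identifiers, and their annotation was not resolved.

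FPKM is a share of each library, so a few abundant transcripts lower all other values. Models with a mean of at least 0.5 FPKM (42214) were fitted on log2(FPKM + 1), a scale that understates the change of low values, with limma 3.58.1 in R 4.3.3 (variance trend, robust) in 1 model over the 3 tissues. Called models had a Benjamini-Hochberg adjusted p under 0.01 and over 2-fold. The procedure was tested on simulated data, where it did not call all of the planted changes. Whole reads were sought in Python 3.11.15 as the smallest whole numbers that explain a model's values, at a chance of a wrong match of at most 0.001, and 524 models worth under 0.005 FPKM per read (4 of them members) were set aside.

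Named models were the 10 of highest ratio, the 10 of highest leaf level, 3 on each side of place 200, and up to 4 in each direction of fiber over ovule. Alternatives covered pseudocounts, scaling, filters, single replicates, left-out libraries and a replicate block.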

Additional observations from a re-analysis of the deposited data

How the results depend on the processing

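The count of members called in fiber over ovule was 146, and 135 with median-of-ratios scaling, 110 with quantile normalization and 156 with a pseudocount of 0.1. Over all tested models, those lower in fiber numbered 14128, 10580, 9764 and 15888 in the same order. Those higher in fiber numbered 7104, 9371, 9994 and 7642. Tested models numbered 42214, or 42219 with median-of-ratios scaling. Under the study's rule of over 2-fold and an unadjusted analysis of variance P per model, 46 members were called. All of them were lower in fiber (23.0%, beside 24.3% of all tested models), so the excess over all models was gone. Members higher in fiber numbered 0, and 1 with a pseudocount of 0.1 or quantile normalization (Gorai.008G142500). Without fiber replicate 1, Cotton_A_23735 had a log2 change of 1.55. When each library was left out in turn, the members' median log2 change lay between -1.98 and -1.76. That of all tested models lay between -0.44 and -0.37. The median change of all tested models moved with the scaling, at -0.42 on the deposited scale, 0.01 after quantile normalization and -0.08 after median-of-ratios scaling, beside -1.92, -1.32 and -1.58 in the members.

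Replicate numbers did not pair the samples. The correlation of replicate differences was -0.059 for leaf and fiber, -0.056 for leaf and ovule, and 0.050 for fiber and ovule. With the replicate block, 144 members were called in fiber over ovule, where 14041 of 42214 tested models were lower in fiber and 7072 were higher.

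The list itself depended most on the constant in the ratio. Of the 200 members, 119 were chosen again with 0.1 in place of 1, 155 with 5, and between 185 and 200 without each library in turn. Limiting the choice to models with at least 10 recovered leaf reads kept 147. That count was fixed in advance, since reads were not recovered for 50 members and 3 had under 10. Without the 100 highest models of each library, the members held 8.07% of leaf FPKM. Counting values of at most 1 FPKM as 0, 25 members were at 0 outside leaf, beside 14 as listed and between 14 and 16 without each library in turn. The ratio of the fiber replicates in the members' summed FPKM was 1.74, and between 1.66 and 1.82 under 6 alternatives chosen after seeing the data. Of 300 recomputed fiber over ovule values of 25 named models, 284 stayed called or stayed not called, 15 lost the call and 1 gained it. Direction was compared only where a value was called, and there 0 turned round. The 25 include models listed at 0 in every fiber and ovule library, which have no direction to keep. The median member had 7.5 and 4 recovered reads in the fiber libraries, which limits single fiber values, and with 2 replicates no permutation test can pass the threshold.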
